A study of Mus musculus with 16 samples.

Results

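Reactive astrocyte genes were followed as a list of 10 genes, Gfap, Vim, Serpina3n, Lcn2, Cd44, Cp, Osmr, S1pr3, Ggta1 and Steap4, which were picked by symbol from the 47593 genes of the deposited count table. The list was taken by gene symbol, and 9 of the 10 genes passed the filter on low counts that also left 16553 genes in all. Astrocytes, the support cells of the cortex, respond to injury, infection and amyloid with a change of state called reactivity, in which the cells enlarge, build up intermediate filaments and turn on secreted proteins and receptors. Cytokines of the interleukin-6 family, oncostatin M among them, drive much of this programme through the shared receptor subunit gp130, Janus kinases and the transcription factor STAT3. In amyloid mouse models the reactive astrocytes gather around plaques, where microglia gather as well. Several genes of the list are also transcribed by other cells, among them endothelial cells (Vim), neurons (Cd44) and neutrophils (Lcn2).

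The RNA of the 16 libraries came from the cortex of heterozygous 5xFAD mice on a C57BL/6-SJL hybrid background. These mice carry human transgenes for a mutant amyloid precursor protein and a mutant presenilin 1, both driven by the neuronal mouse Thy-1 promoter, and develop amyloid plaques. There were 4 groups of 4 libraries, females and males on either the vehicle or the rapamycin diet, and the diet with microencapsulated rapamycin, an inhibitor of the kinase mTOR, or with the carrier alone was given from 2 to 5 months of age. Every animal was transgenic, so no value here compares a 5xFAD cortex with a cortex free of the transgenes. The labels place 5 libraries in batch 2 (replicate 4 of each group and female rapamycin 5) and the other 11 in batch 1.

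Library totals ranged from 16393501 to 20593089 read pairs. CPM values, the read pairs of a gene relative to a common library total, use edgeR's TMM factors, and RPKM, which also divides by the deposited exon length, is used wherever different genes are compared. A gene was called changed at an adjusted p under 0.05 in edgeR's quasi-likelihood test (Benjamini-Hochberg over the 16553 genes). The library labelled male rapamycin 4 had 512 CPM of Xist, the transcript of the inactive X chromosome, and 0 CPM of Y-linked genes, whereas the other male libraries had at most 1.01 CPM of Xist and 104 to 133 CPM of Y-linked genes, so its label is in doubt. Male vehicle 4 held 1996 CPM of 10 choroid plexus genes against at most 336 CPM in the other libraries. Where leaving out either library changed a call, turned a direction or moved a count by over 1.5 times for a result below, the value without it is given.

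Promoters of the list were searched for the STAT-type sequences TTCNNNGAA and TTCNNNNGAA, which differ in the length of the spacer. STAT3 is a factor of this family, and a match to either sequence does not say which STAT protein could act there. The window was the 250 bases before each RefSeq start site (GRCm38.p6), and since each motif reads the same on both strands 1 search covers both. Over all 32851 mouse promoters, 7.02% held TTCNNNGAA and 5.85% held TTCNNNNGAA. Gfap, Lcn2 and Cd44 each held 1 match to TTCNNNNGAA, whose first base lay at -115, -156 and -211 from the start site, and Steap4 held 1 match to TTCNNNGAA at -116. The windows of Vim, Serpina3n, Cp (at 2 start sites), Osmr, S1pr3 and Ggta1 held neither sequence. Shown are the windows of Gfap (chr11:102897201-102897450, minus strand) and Lcn2 (chr2:32387740-32387989, minus strand), with the match in capitals, and of Serpina3n (chr12:104406458-104406707, plus strand), the gene of the list that moved most closely with Gfap over the libraries but has no match:
Gfap: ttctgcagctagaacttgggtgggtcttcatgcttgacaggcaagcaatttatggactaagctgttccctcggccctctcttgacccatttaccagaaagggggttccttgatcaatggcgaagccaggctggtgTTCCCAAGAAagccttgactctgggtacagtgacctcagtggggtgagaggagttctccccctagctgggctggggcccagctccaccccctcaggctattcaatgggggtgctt
Serpina3n: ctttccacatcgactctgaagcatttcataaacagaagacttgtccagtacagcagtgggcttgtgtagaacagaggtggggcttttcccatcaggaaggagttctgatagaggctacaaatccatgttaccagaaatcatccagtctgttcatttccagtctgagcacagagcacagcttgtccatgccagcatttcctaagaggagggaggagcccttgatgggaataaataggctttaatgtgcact
Lcn2: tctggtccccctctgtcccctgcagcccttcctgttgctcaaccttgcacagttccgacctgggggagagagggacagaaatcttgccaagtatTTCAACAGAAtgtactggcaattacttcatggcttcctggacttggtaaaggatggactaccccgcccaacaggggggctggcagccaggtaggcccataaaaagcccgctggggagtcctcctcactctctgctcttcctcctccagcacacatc
A match says that the letters are present in the window and nothing about binding.

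Levels differed widely within the list. Gfap had by far the highest level per length, with a mean of 118 RPKM (SD 39.8, n = 16), and its lowest library lay above the highest library of every other member. Serpina3n (10.6 RPKM, SD 4.15) and Vim (9.60 RPKM, SD 2.55) came next and could not be ranked, since Serpina3n was above Vim in 9 of 16 libraries. S1pr3 followed at 2.53 RPKM (SD 0.384) and was above Cp in 16 of 16 libraries. Neighbours overlapped among Cp (1.47 RPKM), Ggta1 (1.43 RPKM) and Cd44 (1.22 RPKM), with Cp above Ggta1 in 9 libraries and Ggta1 above Cd44 in 10. At the low end were Lcn2, with a median of 0.113 RPKM, Osmr with 0.492 RPKM and Steap4 with 0.167 RPKM. The mean of Lcn2 (0.531 RPKM) came from 1 library, and Lcn2 was above Osmr only in that library. The spread also differed by gene: the highest library exceeded the lowest 1.90-fold for S1pr3, 2.85-fold for Vim, 4.36-fold for Gfap, 4.35-fold for Serpina3n, 22.2-fold for Cd44 and 157-fold for Lcn2.

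**Figure D1:**
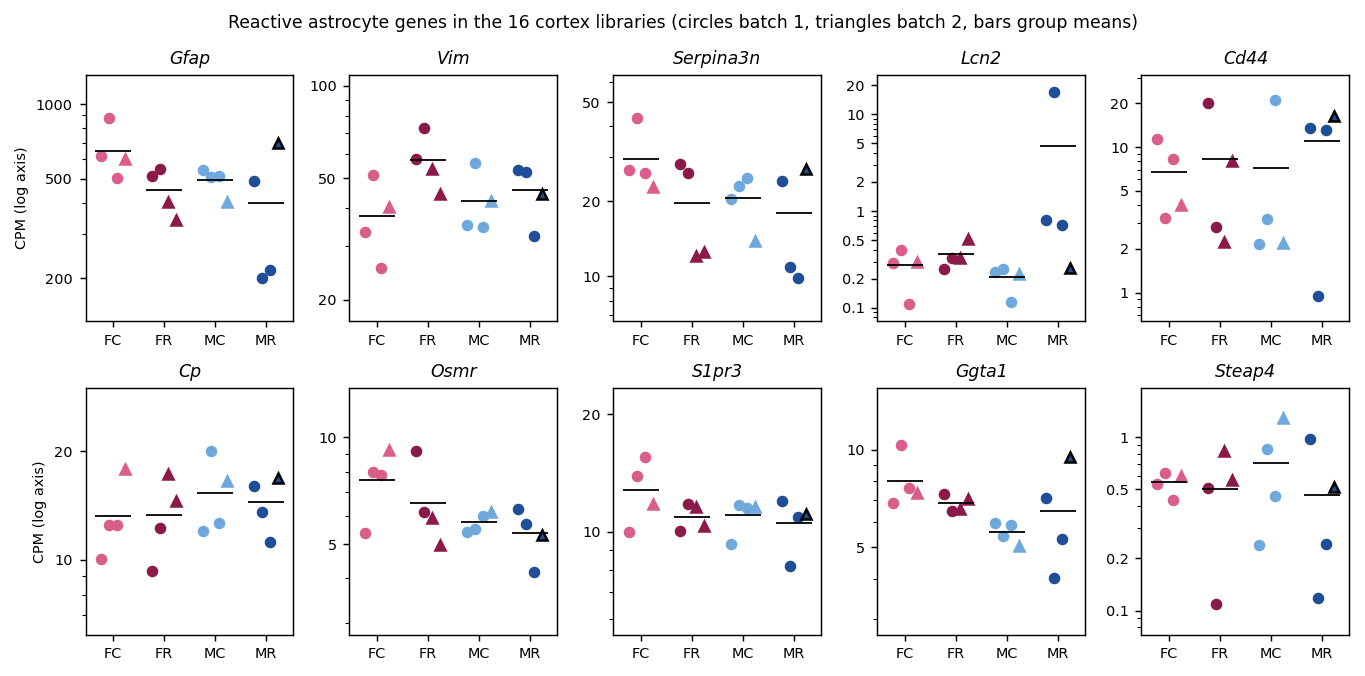
CPM of the 10 genes (log axes, which differ between panels) in females on vehicle (FC) or rapamycin (FR) and males on vehicle (MC) or rapamycin (MR), with circles for batch 1, triangles for batch 2, bars for group means and a black outline for the library labelled male rapamycin 4. Gfap and Serpina3n show 4 rapamycin libraries below all 8 vehicle libraries, and Lcn2 shows 1 male rapamycin library at 17.1 CPM. For Gfap, female rapamycin 4 (403.17 CPM) is almost level with male vehicle 4 (403.46 CPM).

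Rapamycin against vehicle, which asks whether the diet changed the reactive programme, gave no change that passed the test for the list in both sexes together: 0 of the 9 tested genes had an adjusted p under 0.05. Over all genes 13.3% passed (6.46% higher, 6.86% lower), and 2.26% also had a fold change of at least 1.5. The 13.3% became 7.34% without male vehicle 4, 9.44% without the library labelled male rapamycin 4 and 6.22% without both. By point estimate 7 of the 9 genes were lower and 2 were higher, with a median log2 fold change of -0.15 against 0.02 over all genes tested. At an unadjusted p under 0.05 there was 1 of the 9 genes (Vim), against 30.4% of all genes, and DESeq2 also called 0 of them. The 95% intervals stayed wide for most, so a fall of Gfap by 0.88 and a rise of Cd44 by 1.83 on the log2 scale both lie inside them.

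Among the filament genes, Gfap encodes glial fibrillary acidic protein, the main intermediate filament of reactive astrocytes (chr11:102887336-102900912, minus strand). Gfap stood at 619, 876, 506 and 601 CPM in female vehicle 1 to 4. With rapamycin the females had 515, 550, 403 and 343 CPM (replicates 1, 2, 4 and 5). Male vehicle 1 to 3 lay close together at 545, 509 and 516 CPM, with male vehicle 4 below them at 403 CPM. The male rapamycin libraries were spread over 493, 201, 216 and 695 CPM. Female rapamycin 4 and 5 and male rapamycin 2 and 3 were below all 8 vehicle libraries, while the other 4 rapamycin libraries lay inside the vehicle range, so the groups overlapped. Of these, female rapamycin 4 (403.17 CPM) was almost level with male vehicle 4 (403.46 CPM).
The log2 fold change was -0.42 in both sexes (SE 0.22, 95% interval -0.88 to 0.04, adjusted p = 0.206, edgeR), -0.53 in females (adjusted p = 0.316) and -0.31 in males (adjusted p = 0.701, or -0.79 with SE 0.26 and adjusted p = 0.703 without the library labelled male rapamycin 4). Within batches the difference of mean log2 CPM was -0.70 in batch 1 (5 against 6 libraries) and -0.10 in batch 2 (3 against 2). The highest rapamycin value, 695 CPM, belongs to the library labelled male rapamycin 4. Without this library the fold change was -0.60 and passed (SE 0.17, adjusted p = 0.0381), as did 9.44% of all genes, and the batch 2 difference was -0.40. Without that library and male vehicle 4 the adjusted p was 0.0558 (fold change -0.60), and without male rapamycin 2 the fold change was -0.31 (adjusted p = 0.367). In whole cortex, fewer reactive astrocytes and less Gfap RNA per astrocyte cannot be told apart, which holds for each gene here. Gfap overlaps the long noncoding RNA gene Gm26668 on the other strand, and the counting did not use strand.

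Vim, which encodes vimentin, the filament partner of Gfap in reactive astrocytes and a filament of endothelial cells (chr2:13573927-13582826, plus strand), had a difference of the opposite sign. Its levels were 33.3, 51.0, 25.5 and 40.3 CPM in female vehicle and 57.7, 72.7, 53.7 and 44.4 CPM in female rapamycin libraries. In males there were 35.1, 56.1, 34.7 and 41.9 CPM with vehicle and 53.2, 52.4, 32.3 and 44.3 CPM with rapamycin. Among females 3 of 4 rapamycin libraries exceeded every vehicle library, whereas 0 of 4 did so among males.
The log2 fold change of Vim was 0.37 in both sexes (SE 0.16, 95% interval 0.03 to 0.71, adjusted p = 0.130), 0.62 in females (SE 0.22, adjusted p = 0.108) and 0.12 in males (adjusted p = 0.848). The difference between the sexes was 0.51 (95% interval -0.14 to 1.15, adjusted p = 0.999). Batch 1 gave a difference of 0.45 and batch 2 one of 0.20 in mean log2 CPM. Vim passed without male rapamycin 3 (0.46, adjusted p = 0.0448), a fit in which 17.3% of all genes passed.
The exon length slope, which is the trend of a library's log2 CPM deviations on log2 exon length, had a median of -0.0244 (range -0.127 to 0.0640) in rapamycin libraries and 0.0255 (0.000395 to 0.100) in vehicle libraries. Vim had r = -0.67 and rho = -0.66 with this slope, which did not pass (adjusted permutation p = 0.0583), and r was -0.46 without female rapamycin 2 and female vehicle 3. With the slope as a covariate the log2 fold change of Vim was -0.0013 (SE 0.23), against -0.69 for Gfap (SE 0.36, adjusted p = 0.891). Mitochondrial genes took a median of 4.88% of the read pairs with rapamycin and 3.74% with vehicle, and with this share as a covariate Vim was at 0.35 and Gfap at -0.67. With either covariate 0 of all 16553 genes passed, and the part of either measure in the differences was not tested.

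**Figure D2:**
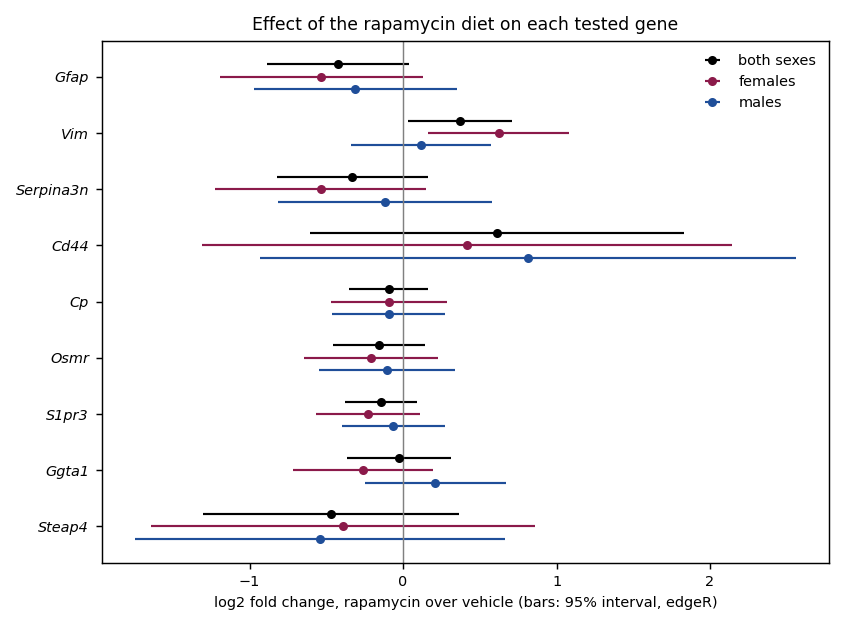
log2 fold change of rapamycin over vehicle for the 9 tested genes (points) with 95% intervals (bars) from edgeR, in both sexes, females and males. For Vim the intervals in both sexes (0.03 to 0.71) and in females (0.16 to 1.08) leave out 0, and every other interval crosses it.

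Of the secreted proteins, Serpina3n, a serine protease inhibitor that is among the most strongly induced astrocyte genes in amyloid models (chr12:104406729-104414329, plus strand), had a pattern like that of Gfap. It stood at 26.8, 43.0, 26.0 and 22.9 CPM in female vehicle and at 28.4, 25.9, 12.1 and 12.5 CPM in female rapamycin libraries. Male vehicle libraries had 20.5, 22.97, 24.8 and 13.9 CPM and male rapamycin libraries 24.1, 10.9, 9.90 and 27.0 CPM. The same 4 rapamycin libraries as for Gfap lay below all 8 vehicle libraries. The log2 fold change was -0.33 in both sexes (SE 0.23, 95% interval -0.82 to 0.16, adjusted p = 0.362), -0.54 in females (adjusted p = 0.330) and -0.12 in males (adjusted p = 0.907), and it was -0.55 in batch 1 and -0.16 in batch 2 as a difference of mean log2 CPM. Without the library labelled male rapamycin 4 the value was -0.54 in both sexes (adjusted p = 0.0563, edgeR) and -0.63 in males (SE 0.27, adjusted p = 0.703).
Serpina3n belongs to a cluster of closely related serpin genes, so read pairs that matched several copies were left out by the authors' counting.

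Lcn2 encodes lipocalin-2, an iron siderophore-binding protein that reactive astrocytes and neutrophils secrete (chr2:32384633-32388252, minus strand). Counts were very low, from 2 to 14 read pairs (0.109 to 0.801 CPM) in 15 libraries, and the gene did not pass the filter. Levels were 0.293, 0.396, 0.109 and 0.301 CPM in female vehicle libraries and 0.255, 0.326, 0.332 and 0.514 CPM in female rapamycin libraries. Males on vehicle had 0.238, 0.250, 0.115 and 0.224 CPM. In males on rapamycin the levels were 0.801, 17.1, 0.724 and 0.257 CPM, so that male rapamycin 2 held 289 read pairs. All 4 male rapamycin libraries were above all 4 male vehicle libraries, as for 1.81% of the 30248 genes with a count, although the lowest of the former (5 read pairs) and the highest of the latter (5 read pairs) had the same count. With no filter on low counts and male rapamycin 2 left out, the log2 fold change was 0.92 in both sexes (SE 0.49, adjusted p = 0.336, edgeR) and 1.47 in males (SE 0.72, adjusted p = 0.551). For the other 9 members the male ranges overlapped (2.06% of genes were lower in every male rapamycin library), and in females the ranges of all 10 overlapped, against 1.44% of genes apart and higher and 2.19% apart and lower with rapamycin.
Male rapamycin 2 also stood apart in neutrophil granule genes, chosen after their values were seen. It held 3.79 CPM of Ngp against at most 0.411 CPM in the other 15 libraries, 4.68 against 0.617 CPM of S100a8, 6.17 against 0.830 CPM of S100a9 and 2.13 against 0.343 CPM of Ltf, ratios of 9.23, 7.59, 7.43 and 6.22. Lcn2 itself was 21.4-fold above the highest of the other libraries, and Lrg1, an acute-phase gene of endothelium and neutrophils, was 2.59-fold above (10.6 against 4.08 CPM). Gfap in this library was the lowest of all 16 at 201 CPM. The part of these cells in the level of Lcn2 was not tested.

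Cp encodes ceruloplasmin, the copper-binding ferroxidase that astrocytes anchor at their surface (chr3:19957054-20009145, plus strand). Female vehicle libraries had 10.1, 12.4, 12.5 and 17.8 CPM and female rapamycin libraries 9.28, 12.2, 17.3 and 14.5 CPM. Male libraries had 12.01, 19.97, 12.6 and 16.5 CPM with vehicle and 16.02, 13.6, 11.2 and 16.9 CPM with rapamycin. The groups overlapped, and the log2 fold change was -0.09 (SE 0.12, 95% interval -0.35 to 0.16, adjusted p = 0.644). The difference was -0.08 in each batch. Cp overlaps Hps3 on the other strand.

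Receptors made up the next group. Osmr encodes the oncostatin M receptor, the subunit that pairs with gp130 (chr15:6813577-6874969, minus strand). It stood at 5.37, 7.97, 7.84 and 9.20 CPM in female vehicle and at 9.13, 6.15, 5.92 and 4.99 CPM in female rapamycin libraries. Male vehicle libraries fell in a narrow range of 5.41, 5.50, 5.995 and 6.15 CPM, and male rapamycin libraries had 6.30, 5.69, 4.16 and 5.30 CPM. The log2 fold change was -0.16 (SE 0.14, 95% interval -0.46 to 0.14, adjusted p = 0.490), with -0.04 in batch 1 and -0.47 in batch 2.
S1pr3, a receptor for the lipid sphingosine-1-phosphate (chr13:51408618-51422797, plus strand), had the narrowest range of the list. The 8 vehicle libraries ran from 9.33 to 15.6 CPM (median 11.6) and the 8 rapamycin libraries from 8.18 to 12.02 CPM (median 11.02). Its log2 fold change was -0.15 (SE 0.11, 95% interval -0.38 to 0.09, adjusted p = 0.400).

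Cd44, the receptor for hyaluronan that marks reactive and fibrous astrocytes (chr2:102811141-102901665, minus strand), varied 22.2-fold between libraries, with no diet difference that passed the test. Female vehicle libraries had 11.4, 3.28, 8.32 and 3.97 CPM and female rapamycin libraries 19.998, 2.83, 2.21 and 8.02 CPM. Male vehicle libraries had 2.14, 3.20, 21.04 and 2.18 CPM and male rapamycin libraries 13.6, 0.949, 13.03 and 16.3 CPM. Every group and both batches held high and low libraries. The log2 fold change of 0.61 had a 95% interval from -0.61 to 1.83 (SE 0.58, adjusted p = 0.506), against 0.39 without the library labelled male rapamycin 4 and 0.41 without male vehicle 4, and the within-batch differences were 0.08 and 1.15, the latter 0.51 without the library labelled male rapamycin 4.
The genes most like Cd44 over the libraries were no astrocyte genes of the lists. They were Rspo2 (r = 0.96), Wnt7b (0.95), Dner (0.95), Cdk18 (0.94) and Mmab (0.94), of which Rspo2 and Wnt7b encode a Wnt-signalling enhancer and a Wnt ligand, and Dner a neuronal Notch ligand. Rspo2 ranged from 7.23 to 61.4 CPM. Wfs1, a neuronal gene that differs between cortical areas and was chosen after its values were seen, ranged from 62.2 to 529 CPM with r = 0.90 against Cd44.

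**Figure D3:**
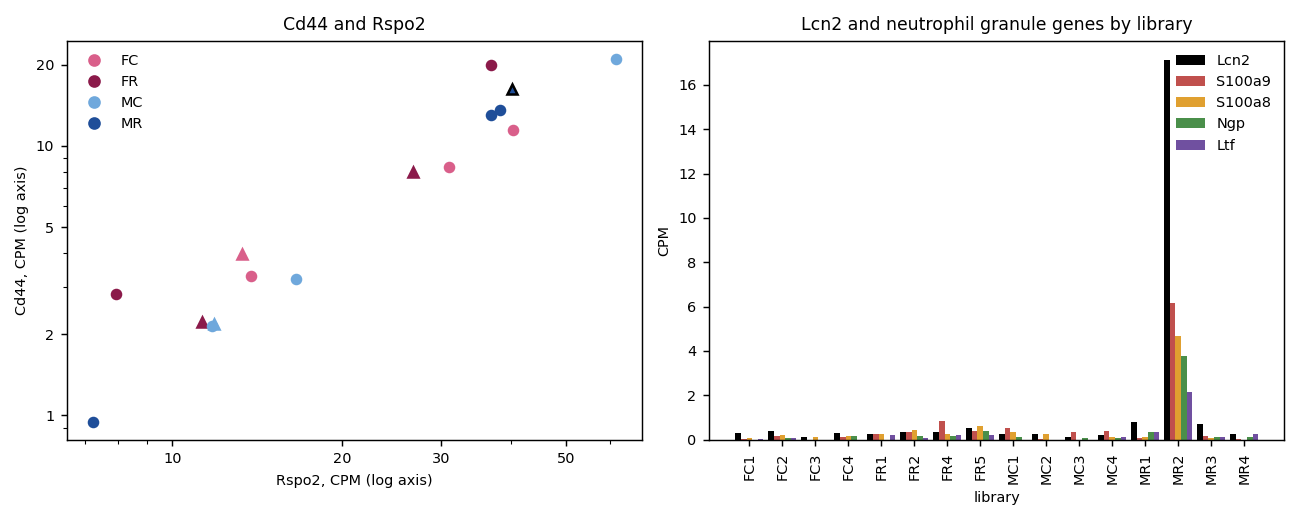
Left, Cd44 against Rspo2 in CPM (log axes), 1 point per library with colours for the groups, triangles for batch 2 and a black outline for the library labelled male rapamycin 4; right, CPM of Lcn2 and 4 neutrophil granule genes as bars for each library. Cd44 follows Rspo2 from 0.949 to 21.04 CPM with vehicle and rapamycin libraries mixed, and the 5 genes on the right are high only in male rapamycin 2 (Lcn2 17.1 CPM).

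Enzymes closed the list. Ggta1 encodes the galactosyltransferase that makes the alpha-gal sugar and belongs to gene sets of inflammatory astrocytes (chr2:35400179-35463231, minus strand). Females had 6.84, 10.3, 7.62 and 7.33 CPM with vehicle and 7.30, 6.47, 6.58 and 7.04 CPM with rapamycin. Males had 5.95, 5.41, 5.88 and 5.03 CPM with vehicle and 7.10, 4.03, 5.31 and 9.53 CPM with rapamycin. All 4 female vehicle libraries were above all 4 male vehicle libraries, as for 0.889% of the 30248 genes with a count, while 0.552% were apart in the other direction. The log2 fold change by diet was -0.03 (SE 0.16, 95% interval -0.36 to 0.31, adjusted p = 0.935), with -0.21 in batch 1 and 0.32 in batch 2. Without the library labelled male rapamycin 4 it was -0.13, and in males the fold change went from 0.21 to -0.05.
Steap4, a metalloreductase (chr5:7960457-7982213, plus strand), had only 2 to 23 read pairs per library. The 8 vehicle libraries ran from 0.238 to 1.29 CPM (median 0.569) and the 8 rapamycin libraries from 0.109 to 0.973 CPM (median 0.513). Its log2 fold change was -0.47 with a wide 95% interval from -1.30 to 0.36 (SE 0.40, adjusted p = 0.452).

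Within each sex the list again had 0 of 9 genes past the threshold. In females 0.0121% of all genes passed (2 genes by edgeR, 1503 by DESeq2, and 23.1% at an unadjusted p under 0.05). Without 1 library the edgeR count ran from 1 to 2104 genes (2104 without female rapamycin 4, 349 without the library labelled male rapamycin 4), and it was 1290 in batch 1 alone, so the female count depends on single libraries. In females the median over the list was -0.23 against 0.02 over all genes, with 7 of 9 point estimates lower. In males 0 genes passed by edgeR (12% at an unadjusted p under 0.05, 27 genes by DESeq2), and the list median was -0.09 against 0.01. For the interaction of sex and rapamycin 0 genes passed by edgeR (2.17% unadjusted), and the differences between the sexes were -0.22 for Gfap (95% interval -1.14 to 0.70) and -0.42 for Serpina3n (-1.39 to 0.55). Both turned sign without the library labelled male rapamycin 4, to 0.34 for Gfap (SE 0.35) and 0.16 for Serpina3n (SE 0.36). In batch 1 alone, which does not hold that library, they were 0.47 and 0.37. No direction of a sex difference can be read for these genes, and the intervals span effects as large as the diet differences themselves.
In the vehicle groups, female against male mice likewise gave 0 of 9 genes, with 0.0121% of all genes passing (9 genes by DESeq2) and 3.55% at an unadjusted p under 0.05. By edgeR these were 2 genes, against 5 without male vehicle 4 and 6 without the library labelled male rapamycin 4. Ggta1 alone had an unadjusted p under 0.05 in edgeR's test, with a log2 difference of 0.53 (higher in females, 95% interval 0.08 to 0.98), and an adjusted p of 0.999. Serpina3n was at 0.54 (-0.15 to 1.22), Gfap at 0.40 (-0.25 to 1.05) and Osmr at 0.40 (-0.04 to 0.83).

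The members did not vary as 1 group. Among the 36 pairs of tested genes, 3 correlated at an adjusted permutation p under 0.05 over 16 libraries after batch means were removed, and all 3 joined Gfap, Serpina3n and Ggta1. Gfap and Serpina3n had r = 0.97 and rho = 0.89 (permutation p = 1e-05, the smallest 100000 permutations can give, adjusted p = 0.00036), 0.93 without male rapamycin 2 and 3 and 0.97 in batch 1 alone. Serpina3n and Ggta1 had r = 0.82 and rho = 0.81 (adjusted permutation p = 0.00234), 0.79 without male rapamycin 2 and 3 and 0.86 in batch 1. For Gfap and Ggta1 r was 0.79 and rho 0.62 (adjusted permutation p = 0.00372 for r and 0.139 for rho), with 0.71 without the same libraries. Vim showed no correlation with Gfap that passed (r = 0.06, adjusted permutation p = 0.951), although both encode filaments of reactive astrocytes. With 16 libraries a weak or moderate relation could be missed.

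Gfap and Serpina3n moved with microglial genes. Gfap had r = 0.97 and rho = 0.96 with the summed CPM of 15 plaque-associated microglia genes such as Cst7, Itgax, Clec7a and Cd68 (adjusted permutation p = 0.000648 over 162 relations, 0.93 without male rapamycin 2 and 3, 0.99 in batch 1). Serpina3n had r = 0.95 with the same sum (0.88 without these libraries), and Ggta1 had 0.78 (0.53 without female vehicle 2 and male rapamycin 2). With 10 homeostatic microglia genes the values were 0.92 for Gfap, 0.88 for Serpina3n and 0.85 for Ggta1. Most of the plaque-associated sum came from Ctsd (mean 746 CPM), a lysosomal protease that many cells transcribe.
The summed plaque-associated genes ranged from 830 to 1703 CPM in vehicle and from 589 to 1258 CPM in rapamycin libraries. The 4 libraries with the lowest sums, female rapamycin 4 (681 CPM) and 5 (761 CPM) and male rapamycin 2 (589 CPM) and 3 (652 CPM), were those with the low Gfap and Serpina3n values. By diet 0 of the 15 genes passed in both sexes (13 of 15 lower, median -0.31), and 5 passed without the library labelled male rapamycin 4, a fit in which 9.44% of all genes passed, or 2 without that library and male vehicle 4. Of the homeostatic list 1 of 10 genes passed, Fcrls (-0.64, adjusted p = 0.0250), and 2 did without the same library. The part of microglial RNA in the levels of Gfap and Serpina3n was not tested.

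**Figure D4:**
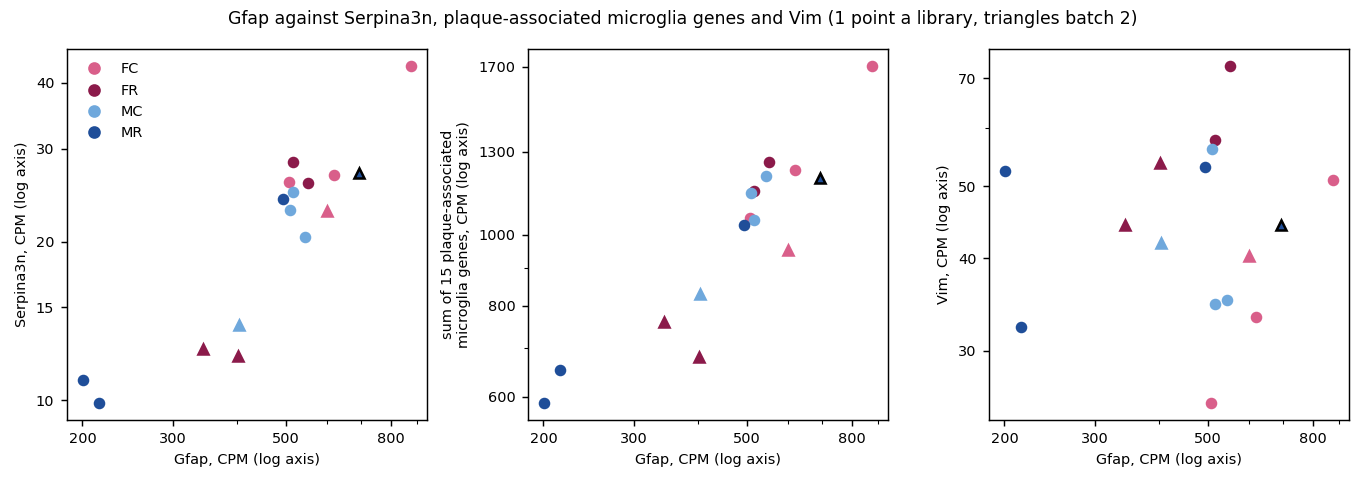
Gfap (horizontal, CPM, log axis) against Serpina3n, the sum of 15 plaque-associated microglia genes and Vim (vertical, CPM, log axes), 1 point per library with triangles for batch 2 and a black outline for the library labelled male rapamycin 4. Serpina3n and the microglial sum rise with Gfap (r = 0.97 for each, batch means removed), and Vim does not (r = 0.06).

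Among 10133 genes with a mean of at least 10 CPM, those with the highest r over 16 libraries (batch means removed, given as a description) were C4b, Cd68, Ctsd, Lyz2 and Cst7 for Gfap (0.98 to 0.94) and C4b, Cd68, Ctss, Ctsd and Lyz2 for Serpina3n (0.96 to 0.93). C4b is a complement gene that plaque-associated astrocytes and other glia transcribe, and the others are lysosomal or microglial genes. Ggta1 was most like Skap2, Itgb5, Cx3cr1, Lyn and Olfml3 (0.85 to 0.84), of which Cx3cr1 is the microglial fractalkine receptor.
Vim was most like Lmf2, Tcf3, Igfbp7, Hemk1 and Mettl7a1 (0.89 to 0.85), and it also moved with the sum of the other pan-reactive genes (Timp1, Hspb1, Cxcl10 and Aspg, r = 0.88, rho = 0.90, adjusted permutation p = 0.000648, 0.88 without female rapamycin 2 and female vehicle 3). Its relations with the disease-associated astrocyte genes (r = 0.73) and with oligodendrocyte genes (r = 0.68) dropped to 0.52 and 0.45 without those libraries.
Cp was most like the vascular genes Cdh5 (0.86) and Bgn (0.85), and had r = 0.87 with the sum of pericyte and smooth muscle genes (adjusted permutation p = 0.000648, rho = 0.68 with adjusted p = 0.104, 0.77 without female rapamycin 1 and male vehicle 2). Steap4 moved with leptomeningeal genes (r = 0.74, adjusted permutation p = 0.0182, rho = 0.61 with adjusted p = 0.150) and was most like Wdr59 (0.82) and Col1a2 (0.81), a collagen gene. S1pr3 was most like Lipa (0.83), the lysosomal acid lipase, and Osmr like Hmha1 (0.79) and Cd33 (0.77), which are genes of blood and microglial cells.

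**Figure D5:**
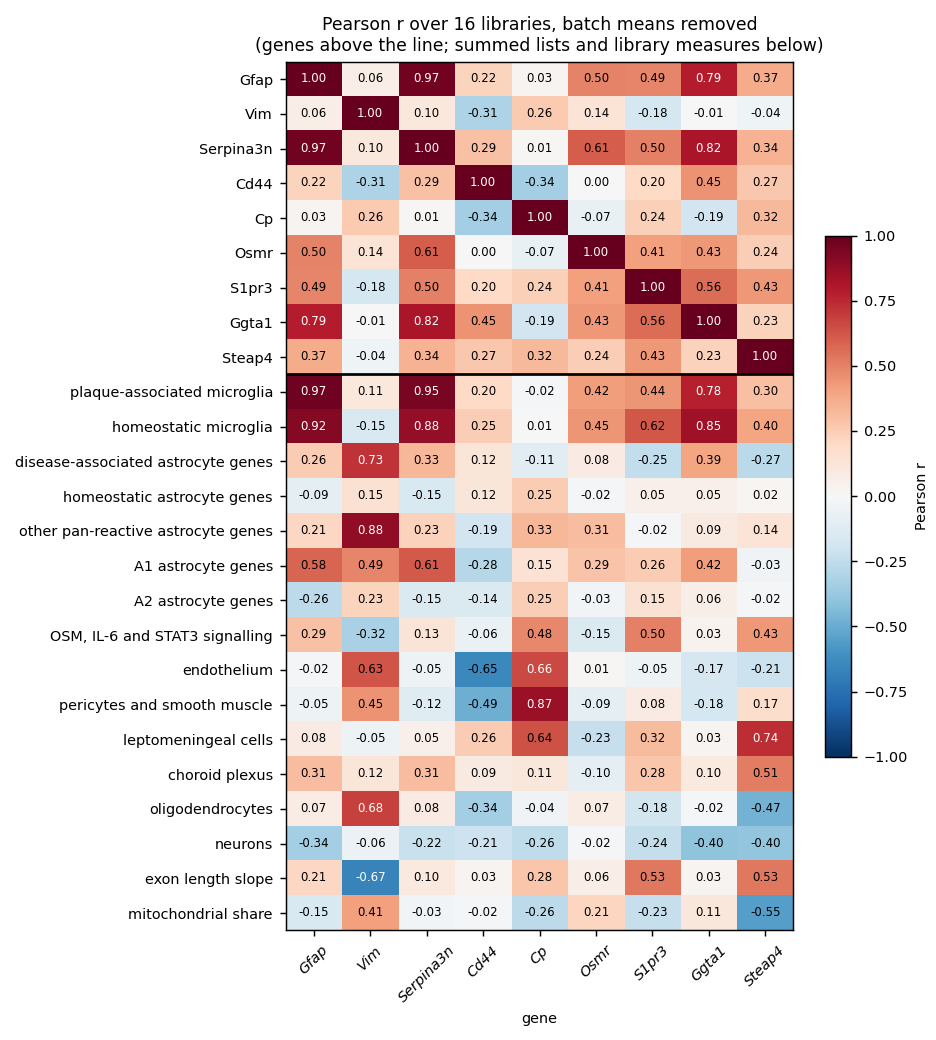
Pearson r over 16 libraries, with batch means removed, of the 9 tested genes (columns) against each other (above the line) and against summed marker lists and 2 library measures (below the line). Gfap, Serpina3n and Ggta1 form a block that also holds the microglial lists (r = 0.78 to 0.97), and Vim and Cp lie outside it.

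Other genes of the pathway and of astrocyte states were counted in both sexes together, where 13.3% of all genes passed. That share was 9.44% without the library labelled male rapamycin 4, 7.34% without male vehicle 4 and 6.22% without both. Among the other pan-reactive genes 0 of 4 passed (1 without the library labelled male rapamycin 4), as did 0 of 10 A1 genes (of the state that microglial cytokines induce), 0 of 10 tested A2 genes (of the state after ischaemia) and 0 of 3 further filament genes, Nes, Synm and Plec, whose point estimates were -0.22, -0.24 and -0.31. Hspb1, a small heat shock protein named after its value was seen, was at 0.62 (adjusted p = 0.0520), the same direction as Vim. It was the 1 pan-reactive gene of 4 with a higher point estimate, 3 were lower, and the median of that list was -0.07.
Of the oncostatin M, interleukin-6 and STAT3 list 14 of 17 genes could be tested, and Osm, Il6 and Cntf, some of its ligand genes, could not. Only Il6st, which encodes gp130, the partner of Osmr, passed: it fell by 0.31 on the log2 scale (SE 0.09, adjusted p = 0.0406). The count of the list was 0 without the library labelled male rapamycin 4, 1 without male vehicle 4 or without both, 1 in batch 1 alone and 3 by DESeq2. Named after their values were seen, Stat3 was at -0.22 (adjusted p = 0.0575), Jak1 at -0.25 (adjusted p = 0.0687) and Socs3, a feedback inhibitor that STAT3 induces, at 0.26 (adjusted p = 0.195). The list as a whole had 10 of 14 point estimates lower and a median of -0.08.

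Genes of resting and plaque-associated astrocytes were counted separately. Of 12 disease-associated astrocyte genes 4 rose, Id3 (0.55, adjusted p = 0.0221), Cst3 (0.47, adjusted p = 0.0225), Clu (0.32, adjusted p = 0.0230) and Apoe (0.40, adjusted p = 0.0256), and the list median was 0.14 with 6 of 12 higher. These encode an inhibitor of helix-loop-helix factors, cystatin C, clusterin and apolipoprotein E. The count was 4 without the library labelled male rapamycin 4, 1 without male vehicle 4, 0 without both, 0 in batch 1 alone and 0 with either of the covariates named for Vim. Of all genes, 9.44%, 7.34%, 6.22%, 7.45% and 0% passed in these fits, in the same order. Of 15 homeostatic astrocyte genes 4 rose, the glycolytic enzyme gene Aldoc (0.40, adjusted p = 0.0104), the gap junction gene Gjb6 (0.47, adjusted p = 0.0119), Ndrg2 (0.36, adjusted p = 0.0140) and S100b (0.33, adjusted p = 0.0152), with 10 of 15 higher and a median of 0.25. That count was 4 without male vehicle 4 and male rapamycin 4 and 0 with either covariate. Gfap had r = -0.09 with the summed homeostatic astrocyte genes.

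Other cell types that the cortex sample can hold were counted in the same way. Of 10 choroid plexus genes 5 fell (Sostdc1, Cldn2, Kcnj13, Aqp1 and Tmem72, by 1.52 to 2.57 on the log2 scale), and their sum ranged from 15.9 to 1996 CPM in vehicle and from 25.4 to 195 CPM in rapamycin libraries. Without male vehicle 4, the library rich in choroid plexus RNA, 0 of the 10 passed, and 1 did without the library labelled male rapamycin 4. Endothelium had 2 of 10 genes past the threshold, Kdr (-0.49, adjusted p = 0.0376) and Ly6c1 (0.59, adjusted p = 0.0250), and 1 gene without male vehicle 4 or without the library labelled male rapamycin 4. Pericytes and smooth muscle, leptomeningeal cells and oligodendrocytes had 0 of 10 genes each, and blood 0 of 5 tested genes of 8. The choroid plexus sum showed r = 0.31 with Gfap and 0.12 with Vim.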

How the data were processed

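The authors deposited counts of read pairs per gene, not normalized, for 16 libraries, and the same counts in 1 table per group (0 differing cells). Per the paper's methods they trimmed the first 10 bases with Trimmomatic 0.39 after FastQC 0.11.9, aligned with HISAT2 2.2.1 to GRCm38 (mm10), and used Ensembl annotation. Per the file headers, featureCounts 2.0.3 counted read pairs on exons by gene name without strand. Pairs that matched several places or several genes were not counted. The paper's results text speaks of pooled cortical samples and of another number per condition than the labels. Its legend for the RNA-seq figure gives as many mice per group as the labels give libraries. The labels give 1 library per replicate, so p-values measure the spread between libraries.

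From these counts, R 4.3.3 with edgeR 4.0.16 gave TMM factors, filterByExpr (minimum count 10) and quasi-likelihood tests with sex, batch and treatment as terms (both sexes) or the 4 groups and batch, with Benjamini-Hochberg adjustment over 16553 genes (99.9% of the counts, biological coefficient of variation 0.186). Log2 CPM has a prior count of 2. DESeq2 1.42.0 was an alternative. Correlations used Python 3.11.15, NumPy 2.4.6 and SciPy 1.17.1 with 100000 permutations, and figures used matplotlib 3.10.9. Promoters are RefSeq's (GRCm38.p6), matched for all 10 genes. Tests were tried on simulated data.

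The members and the 16 marker lists (163 genes) were chosen with earlier results of these data known. Named are all members, list genes that passed in both sexes (up to 6 per list) and the 5 genes most like Gfap and Serpina3n. The last rule was extended to the other members, and the correlations with summed lists and library measures were added, after seeing the data. The result of 1 marker list is not reported here.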

Additional observations from a re-analysis of the deposited data

Results flagged for a closer look

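In 40 groups of 4 libraries (10 genes in 4 groups), 3 had a highest or lowest library whose gap to its neighbour exceeded Dixon's 95% critical value, and chance alone gives about 1 in 20. Lcn2 in male rapamycin 2 was at 17.1 CPM, with a gap of 0.968 of the range of its group. Cd44 in male vehicle 3 was at 21.04 CPM, with a gap of 0.944. S1pr3 in male vehicle 1 was the lowest of its group at 9.33 CPM.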

How the results depend on the processing

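Each comparison was repeated under 26 alternatives, and of 1170 fold changes of the 9 tested members 1154 kept their side of the threshold. The 16 others passed only under an alternative, and those not already given came from fits with no filter on low counts. That filter dropped, the fit put 3 members past the threshold in both sexes (Gfap -0.42, Vim 0.37 and Lcn2 2.81) and 3 in females (Gfap -0.53, Vim 0.62, Serpina3n -0.54). It put 2 there in males (Cd44 0.82, Lcn2 4.32) and 1 in the interaction (Lcn2 -3.68), and the cause was not tested. Of all genes in that fit, 8.68%, 5.55%, 1.74% and 0.288% passed in these comparisons, in the same order. With male rapamycin 2 left out too, a fit chosen after seeing the data, 3 passed in both sexes (Gfap -0.31, Vim 0.36, Cd44 0.84), 3 in females, 1 in males (Cd44 1.28) and 1 in female against male vehicle (Serpina3n 0.54). The shares of all genes were 7.24%, 6.06%, 1.4% and 0.558% in these comparisons, in the same order. Lcn2 did not pass there (0.92 in both sexes, adjusted p = 0.336). Each fit that called Lcn2 held male rapamycin 2, with 289 read pairs against 2 to 14 in the other libraries, and under the filter it was kept through the male rapamycin group, so its calls are no support for a diet difference. Leaving out 1 library at a time gave 0 to 2 members in both sexes: Lcn2 without female vehicle 4 or female rapamycin 4, Vim without male rapamycin 3, and Gfap and Lcn2 without the library labelled male rapamycin 4. Of all genes, 9.18%, 20%, 17.3% and 9.44% passed in these 4 fits, in the same order. In the other 4 comparisons leaving out 1 library gave 0 to 0. Gfap ranged from -0.69 to -0.31 in both sexes with no change of sign, and Vim from -0.0013 to 0.46. All 72 alternative correlations of member pairs kept their call. Over all genes, the number past the threshold in both sexes was 2205, against 3131 by DESeq2, 142 without the batch term and 0 with either covariate. Without 1 library the number ran from 719 (without female rapamycin 1) to 3352 (without female rapamycin 4), and it was 1234 without male vehicle 4. With the replicate number as a block, 0 members and 1298 genes passed in both sexes. Libraries with the same number had deviations that correlated between -0.24 and 0.30 within batches, with no value for replicate 4. These were not set against libraries with different numbers, so whether the numbers pair the samples was not tested. Counts of 2 to 23 read pairs limit Steap4 and, outside male rapamycin 2, Lcn2.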
